A study of Mus musculus with 13 samples.

Results

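The genes of the mouse proteasome were followed through ribosome profiling (Ribo-seq) and acetylated RNA immunoprecipitation (acRIP-seq) of oocytes. The set holds every protein-coding gene whose symbol starts with Psma, Psmb, Psmc, Psmd, Psme, Psmf or Psmg and a digit. This symbol rule found 50 of the 22442 genes listed for Ribo-seq, and the same 50 are among the 21898 genes listed for acRIP-seq. They comprise 7 constitutive alpha and 7 constitutive beta subunits of the 20S core, 5 inducible or tissue-specific core subunits, 6 ATPase genes of the 19S cap, 14 Psmd genes, 5 activator genes, 4 Psmg genes of chaperones that assemble the core, and 1 inhibitor. Of the 14 Psmd genes, 11 encode non-ATPase subunits of the cap, while Psmd5, Psmd9 and Psmd10 encode chaperones that help assemble its base and are not part of the finished particle. The remaining gene, Psmc3ip, matches the rule by its name only, since it encodes a meiotic recombination protein. Psme2b, which was counted with the activators, shares much of its coding sequence with other places in the genome.

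The proteasome is the large protease that degrades proteins tagged with ubiquitin. Its 20S core is a stack of rings, in which the beta subunits hold the proteolytic sites and the alpha subunits form the gate, while the 19S cap recognizes tagged proteins, removes the ubiquitin and unfolds the substrate with its ring of ATPases. In oocytes the proteasome is best known for destroying cyclin B and securin, which lets the meiotic divisions proceed.

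Ribo-seq counted ribosome-protected fragments (RPFs) on coding sequences, so that a count reflects both the amount of an mRNA and its translation, which cannot be told apart here. All mice were C57BL/6J females given PMSG, a hormone that makes follicles grow, at 21 days of age. How the MII oocytes for Ribo-seq were obtained, by ovulation after hCG or by maturation in culture, is not given in the sources used here, so stage and way of collection cannot be told apart. The 11 Ribo-seq libraries were each a pool of about 100 oocytes, 3 from wild-type (WT) oocytes at the germinal vesicle (GV) stage, 3 from Nat10-ZcKO GV oocytes, 2 from WT oocytes at metaphase II (MII) and 3 from Nat10-ZcKO MII oocytes. In Nat10-ZcKO females, floxed Nat10 is deleted by Cre under the Zp3 promoter, which is active in the growing oocyte only. Nat10 is the gene of the enzyme that writes N4-acetylcytidine (ac4C). The paper gives the genotype as Nat10 lox/- with Zp3-Cre, so that somatic cells keep the floxed copy and carry a deleted allele beside it. The series text also names tamoxifen on 3 days for these samples. The 2 acRIP-seq libraries, 1 with an antibody to ac4C and 1 with IgG, were each made from about 2000 WT GV oocytes.

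Library totals ran from 4815 to 279464 RPF counts, and 3 libraries stood apart. Markers of oocytes, a list of 12 genes, made up 6.25 to 8.64% of the counts in WT GV and 12.5% in Nat10-ZcKO GV replicate 3, but 0.0212% and 1.61% in Nat10-ZcKO GV replicates 1 and 2. In replicate 1 the egg coat gene Zp2 and the growth factor gene Gdf9 had 0 counts. Of the 16 adipocyte markers, 16 had a count in replicate 1 and 11 in replicate 2, with 1.54% and 0.337% of the counts, against 0.0213 to 0.0447% in the other GV libraries. The 10 smooth muscle markers all had a count in replicate 1, with 0.524% of the counts against 0.0697 to 0.135% in the other GV libraries, and the 15 granulosa or cumulus markers made up 0.873% of it against 0.217 to 0.421%. WT MII replicate 2 had 4815 counts in all, and 2 of the 12 oocyte markers had a count in it. Fewer oocytes and less RNA per oocyte cannot be told apart in such pools. Nat10 itself had 3 to 11 counts in WT GV, 1 to 5 in Nat10-ZcKO GV, and, for MII, 1 and 5 in WT against 2 to 6 in Nat10-ZcKO, which is too few to check the labels, and the counts also cover exons outside the deletion. Results are therefore given with and without the 3 libraries.

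Summed over the 50 genes, proteasome RPFs took a larger share of the GV than of the MII libraries, with 1 library of each stage as exceptions. In CPM, the counts scaled to the same library total, the sum was 5293, 5264 and 5565 for WT and 5666, 4371 and 5388 for Nat10-ZcKO at the GV stage. At the MII stage it was 3107 and 4984 for WT and 3820, 2733 and 2805 for Nat10-ZcKO. The GV and MII libraries overlapped only through WT MII replicate 2, whose 24 proteasome counts came from 2 genes, and Nat10-ZcKO GV replicate 2. The group means were 5374 ± 166 CPM in WT GV (SD, n = 3), 5141 ± 682 in Nat10-ZcKO GV (n = 3), 4046 ± 1327 in WT MII (n = 2) and 3119 ± 608 in Nat10-ZcKO MII (n = 3). Without the 3 libraries the mean was 5377 ± 136 CPM in GV and 3116 ± 496 CPM in MII (SD, n = 4 each), a ratio of MII to GV of 0.580, and the 2 stages did not overlap. The GV libraries kept are 3 WT and 1 Nat10-ZcKO, and the MII libraries kept are 1 WT and 3 Nat10-ZcKO. Every mean, ratio and range over these 8 libraries therefore mixes stage with genotype. Over the 11 libraries 5 genes had 0 counts, 4 had 1 to 9, 19 had 10 to 99 and 22 had 100 or more. A share of the counts carries no test here, and it depends on what the rest of the library holds.

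**Figure D1:**
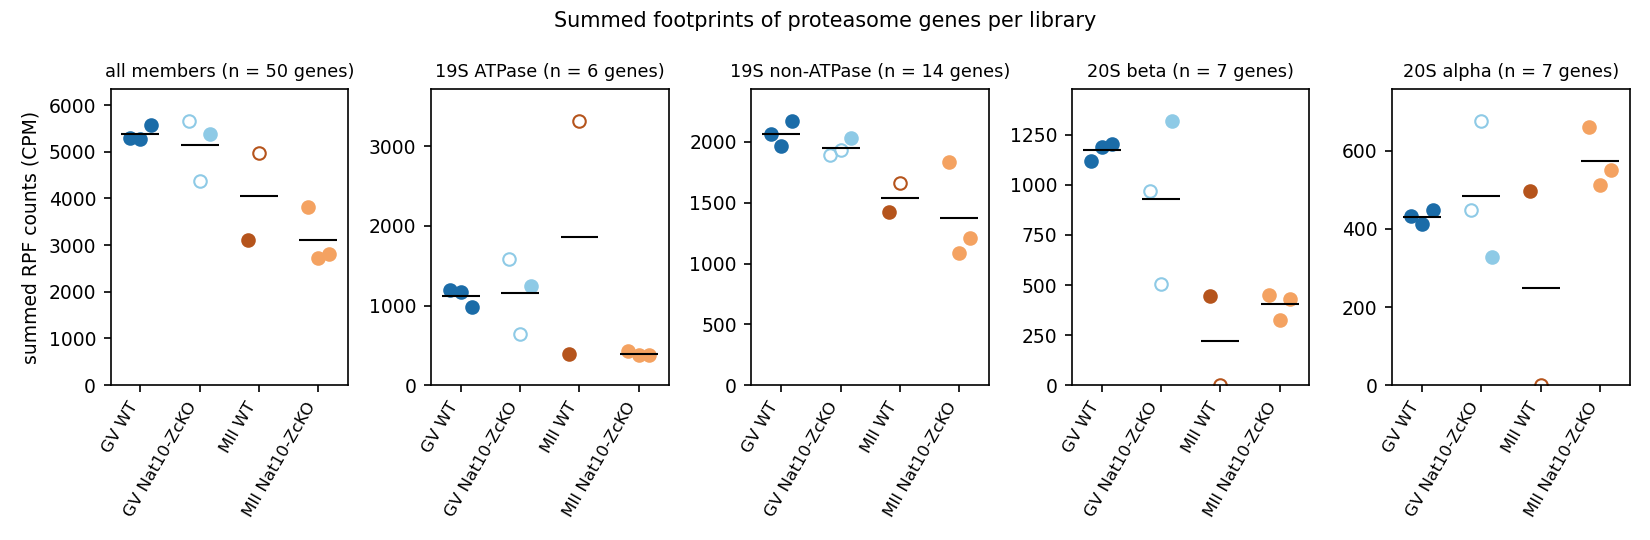
Summed RPF counts in CPM per library (points) with the group mean (line), for all 50 proteasome genes and for 4 classes of subunits. Open points are the 3 libraries that stood apart. The filled points of the 19S ATPases and the 20S beta subunits sit lower in MII than in GV, at 375 to 426 against 988 to 1248 CPM and at 327 to 452 against 1121 to 1321 CPM, while those of the 20S alpha subunits sit higher, at 497 to 660 against 328 to 447 CPM, through Psma2, without which the other 6 alpha genes are at 93.9 to 178 against 173 to 291 CPM. The 14 Psmd genes are drawn as 19S non-ATPase.

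Cell type markers also moved with stage. The oocyte list was at 1.24 to 1.57% of the counts in the 4 deeper MII libraries, against 6.25 to 12.5% in the 4 GV libraries kept, but its genes ran both ways. In CPM, 7 of the 12, namely Zp1, Zp2, Zp3, Nlrp5, Nlrp14, Ooep and Padi6, were lower in each of these MII than in each of these GV libraries, 3, namely Gdf9, Oosp1 and Mos, were higher, and 2 overlapped. The granulosa or cumulus list of 15 genes was at 0.166 to 0.469% in those MII and 0.217 to 0.421% in those GV libraries. Its genes ran both ways too. In CPM, 3 of them, namely Amh, Foxl2 and Inhba, were lower in each of these MII than in each of these GV libraries. Another 3, namely Ptx3, Tnfaip6 and Ptgs2, were higher, and 9 overlapped. The cumulus gene Ptx3 had 62 to 285 counts in MII and 0 or 1 in GV, and Amh had 0 to 4 against 60 to 93. The smooth muscle list of 10 genes was at 0.0119 to 0.0204% in those MII and at or above 0.0697% in those GV libraries, mostly through Myh11 with 6 to 19 against 58 to 249 counts. Their part in the stage difference of the proteasome genes was not tested.

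The stage difference varied in size between the classes of subunits. Over the 8 libraries, the 7 beta subunits together went from 1210 ± 82.9 CPM in GV to 414 ± 58.6 in MII (SD, n = 4 each), a ratio of 0.342. The 6 ATPases of the cap went from 1152 ± 113 to 394 ± 22.4 CPM, also a ratio of 0.342. The 14 Psmd genes went from 2058 ± 87.3 to 1388 ± 330 CPM, a ratio of 0.674, and the 11 of them that encode cap subunits from 1769 ± 109 to 1214 ± 314 CPM, a ratio of 0.686. The 7 alpha subunits went from 405 ± 53.2 to 555 ± 73.7 CPM, a ratio of 1.37, which rests on Psma2. Without it the other 6 went from a mean of 232 CPM (173 to 291) to one of 134 CPM (93.9 to 178), a ratio of 0.578, with libraries that overlapped slightly. The activators were at 162 ± 69.4 CPM in GV and 256 ± 80.9 CPM in MII, with overlapping libraries, and the Psmg chaperones at 87.5 ± 34.4 and 66.0 ± 38.6 CPM, also overlapping. A pair of genes, Psma2 and Psmd3, held much of what remained in MII. Without them the summed share of the other 48 genes was 5049 ± 81.0 CPM in GV and 2099 ± 337 CPM in MII, a ratio of 0.416. The pair was chosen because it was seen to be higher in MII, so leaving it out lowers the ratio by construction.

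Single genes were compared between MII and GV with edgeR's quasi-likelihood test and Benjamini-Hochberg adjustment over all genes tested, with genotype as a term. Of the 50 genes, 25 passed the filter on low counts in the fit of all 11 libraries. At an adjusted p under 0.05, 9 of the 25 fell in MII and 0 rose. Among all 2991 genes tested in that fit, 20.9% were called lower and 12.6% higher. DESeq2 called 18 of the 25 lower and 0 higher, against 43.1% and 17.2% of all genes. The median log2 change was -1.34 over the 25 proteasome genes and -0.48 over all genes tested. The median of all genes moved with the scaling, to -0.30 with library size only and to -0.86 with DESeq2, and the proteasome median lay 0.87 to 0.92 below it under the 3 scalings. In the WT libraries alone 3 of 21 genes fell and 1 rose, against 11.5% and 9.98% of all genes, and in the Nat10-ZcKO libraries alone 2 of 21 fell and 0 rose, against 6.02% and 10.2%. The count depended on single libraries. It was 3 of 24 without Nat10-ZcKO GV replicate 3, where 10.7% of all genes were called lower, and 2 of 30 without WT MII replicate 1, against 6.11%. It was 4, 5 and 5 of 25 without Nat10-ZcKO MII replicates 1, 2 and 3, against 12.3%, 16.8% and 12.0%. Leaving out WT MII replicate 2 gave 8 lower and 2 higher of 31, against 17.2% and 20.6% of all genes.

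Without the 3 libraries that stood apart, 26 proteasome genes were tested, of which 16 fell and 3 rose in MII, all 9 of the first fit among the 16. Among the 3094 genes tested in these 8 libraries, 33.9% were called lower and 30.4% higher. For 15 of the 26 every MII library lay below every GV library, and for 2 every MII library lay above, against 28.5% and 29.3% of all genes tested. The median log2 change was -1.37 over the 26 genes and -0.14 over all genes tested. By class, 5 of 6 ATPases, 5 of 10 tested Psmd genes, 4 of 5 tested beta subunits, 1 of 2 tested alpha subunits and the inhibitor fell, and 1 Psmd gene, 1 alpha subunit and 1 of 2 tested activators rose. Of the 26 tested genes, 21 encode subunits of the constitutive core and cap, of which 14 fell and 2 rose. Psmd5 and Psmd9, of base chaperones, were tested too, whereas no inducible subunit and no Psmg gene was.

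**Figure D2:**
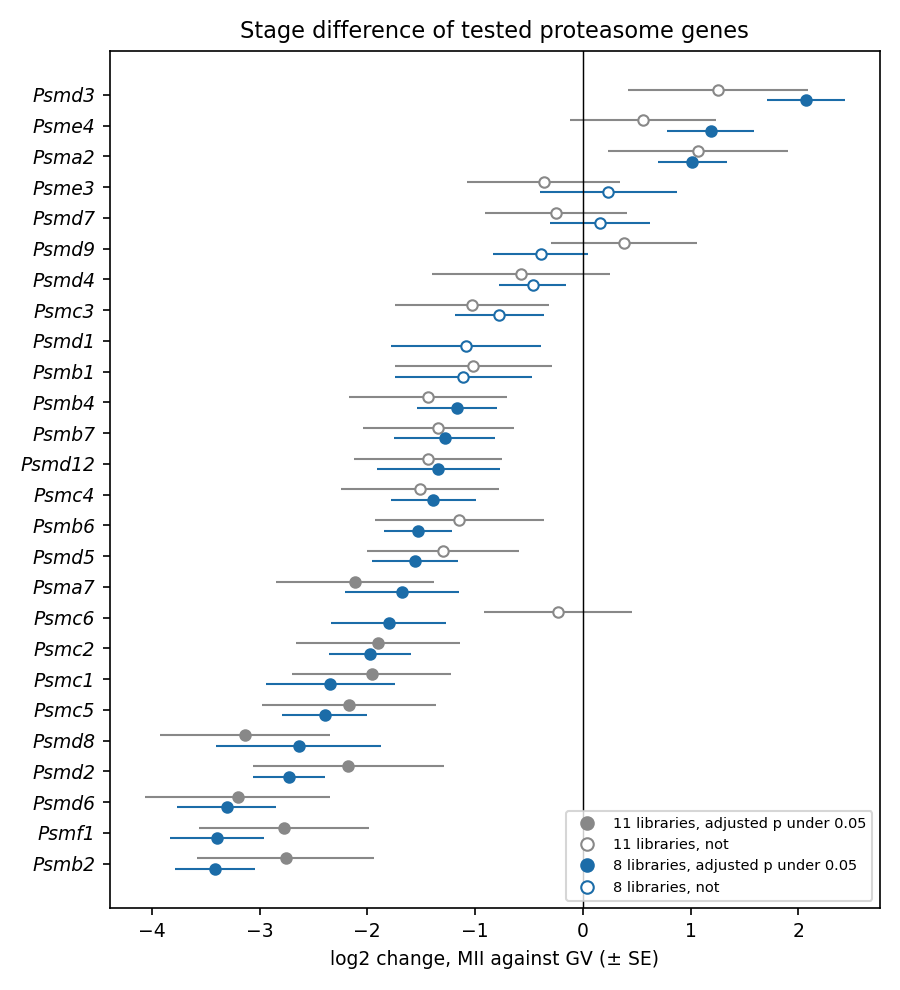
Log2 change between MII and GV with its SE for each tested proteasome gene, from the fit of 11 libraries (grey) and of 8 libraries (blue), with filled points at an adjusted p under 0.05. In the 8 libraries the changes run from -3.41 for Psmb2 to 2.07 for Psmd3, and Psmc6 is the gene whose estimate differs most between both fits.

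Among the core genes, Psmb2 encodes a beta subunit without a proteolytic site of its own and had the highest level per coding length of all 50 genes in WT GV, at 791 ± 93.4 TPM (CPM corrected for coding length and rescaled; SD, n = 3). It was at 337, 419 and 354 CPM in WT GV and at 70.8, 38.7 and 408 CPM in Nat10-ZcKO GV. In MII it was at 44.5 and 0 CPM in WT and at 53.2, 54.5 and 18.8 CPM in Nat10-ZcKO. The only GV library within the MII range was Nat10-ZcKO GV replicate 2, and replicate 1 was just above it, both libraries that stood apart. Psmb2 fell in MII by 2.76 ± 0.82 on the log2 scale (SE, adjusted p = 0.00674, edgeR) with 11 libraries and by 3.41 ± 0.37 (adjusted p = 6.03e-08) with 8.

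After it in WT GV came Psmb6 at 597 ± 52.6, Psmf1 at 439 ± 133, Psmd6 at 386 ± 15.8, Psmd4 at 352 ± 32.4 and Psma2 at 330 ± 36.5 TPM, where the last 4 lay within each other's spread or close to it. Psmb6 encodes the beta subunit with caspase-like activity. It was at 351, 297 and 343 CPM in WT GV, at 142, 38.7 and 404 CPM in Nat10-ZcKO GV, at 163 and 0 CPM in WT MII and at 154, 129 and 113 CPM in Nat10-ZcKO MII. With 11 libraries its log2 change of -1.14 ± 0.78 did not pass (SE, adjusted p = 0.24), while with 8, where the stages did not overlap, it fell by 1.53 ± 0.31 (adjusted p = 0.000225). Psmb5, the gene of the beta subunit with chymotrypsin-like activity, had 9, 8 and 1 counts in WT GV, 1, 0 and 17 in Nat10-ZcKO GV and 0 in each of the 5 MII libraries, and it was too low to be tested. A count of 0 allows up to 16.0 to 22.2 CPM in the 4 deeper MII libraries, taking 3 counts as the limit, so a low level there was not detectable.

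Psma7, of an alpha subunit, was the alpha gene that fell. It was at 158, 125 and 135 CPM in WT GV, at 94.4, 290 and 75.8 CPM in Nat10-ZcKO GV, at 29.7 and 0 CPM in WT MII and at 16.0, 61.3 and 37.6 CPM in Nat10-ZcKO MII. Every MII library lay below every GV library. The log2 change was -2.12 ± 0.73 (SE, adjusted p = 0.0189, edgeR).

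Psma2, of another alpha subunit, moved the other way. It was at 186, 197 and 156 CPM in WT GV and at 94.4, 116 and 155 CPM in Nat10-ZcKO GV, against 319 and 0 CPM in WT MII and 532, 375 and 457 CPM in Nat10-ZcKO MII. All MII libraries but WT MII replicate 2, whose 0 allows up to 623 CPM, lay above all GV libraries. The difference did not pass with 11 libraries (log2 change 1.07 ± 0.83, adjusted p = 0.307, edgeR) and passed with 8 (1.02 ± 0.32, adjusted p = 0.00821). Psma2 had 421 counts over all 11 libraries and Psma7, the alpha gene with the next most, had 133.

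**Figure D3:**
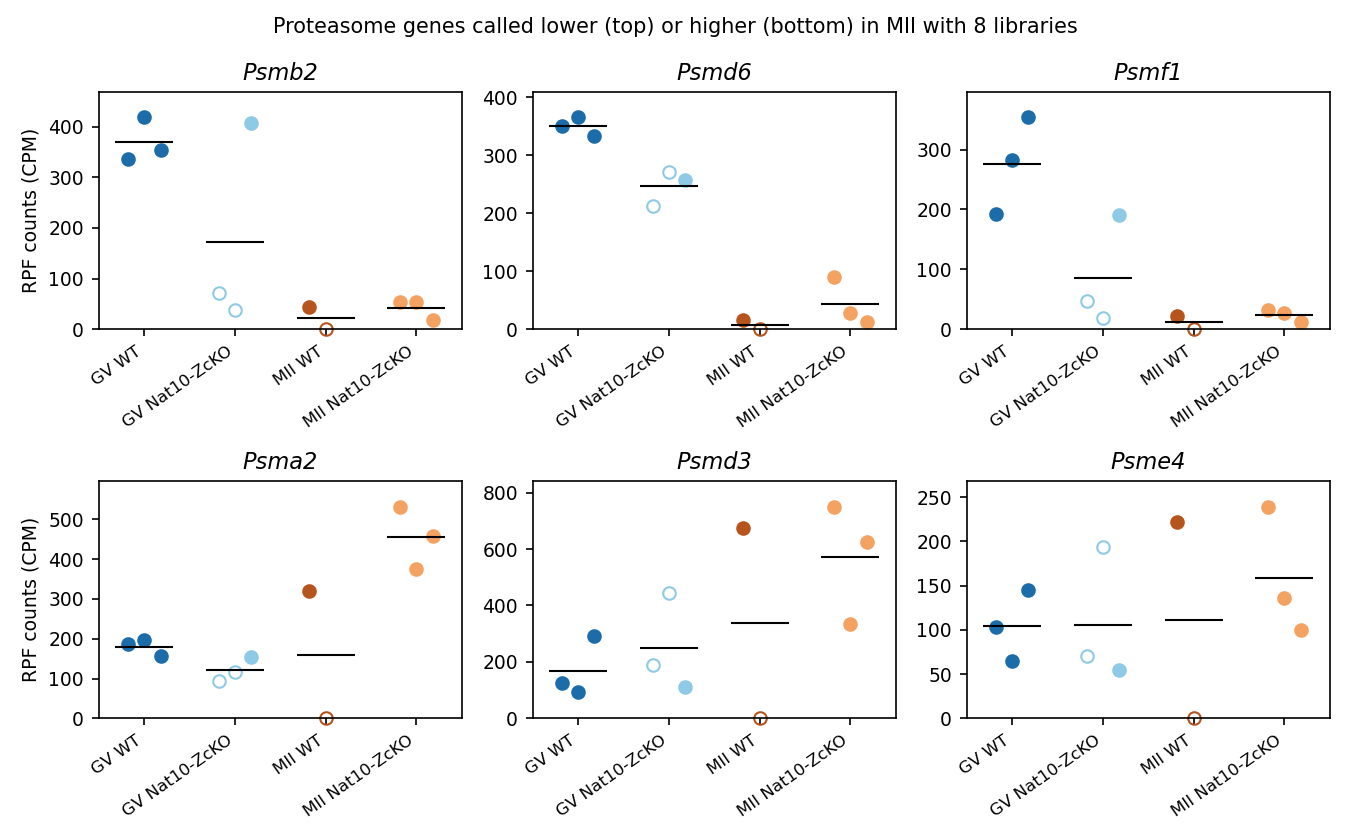
RPF counts in CPM per library (points) with the group mean (line) for 3 genes called lower and 3 called higher in MII over 8 libraries. Open points are the 3 libraries that stood apart. Psmb2, Psmd6 and Psmf1 have all MII libraries at or below 90.4 CPM, and Psmd3 has its 4 deeper MII libraries at 334 to 750 CPM.

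Among the cap genes, 3 of the 6 ATPases fell with 11 libraries and 5 with 8. Psmc5 was at 344, 361 and 229 CPM in WT GV, at 472, 77.4 and 509 CPM in Nat10-ZcKO GV, at 111 and 0 CPM in WT MII and at 144, 61.3 and 31.3 CPM in Nat10-ZcKO MII. Nat10-ZcKO GV replicate 2 was the GV library that overlapped with MII. Psmc2 was at 351, 211 and 302 CPM in WT GV, at 165, 135 and 180 CPM in Nat10-ZcKO GV, at 74.2 and 0 CPM in WT MII and at 63.8, 40.9 and 62.6 CPM in Nat10-ZcKO MII, with no overlap of the stages. Psmc5 fell by 2.17 ± 0.81 on the log2 scale (SE, adjusted p = 0.0285, edgeR), Psmc2 by 1.90 ± 0.76 (adjusted p = 0.0418) and Psmc1 by 1.96 ± 0.74 (adjusted p = 0.0298), all with 11 libraries. Psmc4 and Psmc6 passed with 8 libraries only, at -1.39 ± 0.39 and -1.80 ± 0.53 (adjusted p = 0.00399 and 0.00546), and Psmc3 passed in neither. Psmc6 had 16 counts in WT MII replicate 2, which amount to 3323 CPM, against 13.6 to 81.4 CPM in the other MII libraries. Its log2 change was -0.23 ± 0.69 with 11 libraries (adjusted p = 0.807) and -1.34 ± 0.57 without that library alone (adjusted p = 0.0703).

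The Psmd genes ran in both directions. Psmd6 was at 351, 365 and 333 CPM in WT GV, at 212, 271 and 256 CPM in Nat10-ZcKO GV, at 14.8 and 0 CPM in WT MII and at 90.4, 27.3 and 12.5 CPM in Nat10-ZcKO MII. Every MII library lay well below every GV library, those that stood apart included. It fell by 3.20 ± 0.86 on the log2 scale (SE, adjusted p = 0.00291, edgeR), and it passed in the WT libraries alone (-4.17 ± 1.30, adjusted p = 0.0142) and in the Nat10-ZcKO libraries alone (-2.75 ± 0.78, adjusted p = 0.0334).

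Psmd2, the gene of a large scaffold subunit at the base of the cap, was at 550, 494 and 541 CPM in WT GV and at 165, 38.7 and 592 CPM in Nat10-ZcKO GV, against 81.6 and 0 CPM in WT MII and 149, 136 and 50.1 CPM in Nat10-ZcKO MII. Psmd8 was at 103, 89.5 and 125 CPM in WT GV, at 23.6, 348 and 72.2 CPM in Nat10-ZcKO GV, at 7.42 and 0 CPM in WT MII and at 53.2, 0 and 0 CPM in Nat10-ZcKO MII. In both genes the only overlap came from GV libraries that stood apart. Psmd2 fell by 2.18 ± 0.89 (SE, adjusted p = 0.0445, edgeR) and Psmd8 by 3.13 ± 0.79 (adjusted p = 0.00138), on the log2 scale with 11 libraries.

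Psmd3, which encodes a structural subunit of the lid of the cap, was the gene with the largest positive log2 change in both fits. It was at 124, 93.0 and 291 CPM in WT GV, at 189, 445 and 112 CPM in Nat10-ZcKO GV, at 675 and 0 CPM in WT MII and at 750, 334 and 626 CPM in Nat10-ZcKO MII. The 4 deeper MII libraries lay above all GV libraries but Nat10-ZcKO GV replicate 2. The log2 change was 1.25 ± 0.83 with 11 libraries (SE, adjusted p = 0.227, edgeR), 1.83 without WT MII replicate 2 (adjusted p = 0.00945) and 2.07 ± 0.36 with 8 libraries (adjusted p = 3.58e-05). With its 515 counts over all libraries it had the most of all 50 genes. The ubiquitin receptor gene Psmd4 and the lid gene Psmd7 passed in neither fit, at -0.57 ± 0.83 and -0.25 ± 0.66 with 11 libraries.

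Psmf1 encodes an inhibitor of the core and was at 192, 283 and 354 CPM in WT GV, at 47.2, 19.3 and 191 CPM in Nat10-ZcKO GV, at 22.2 and 0 CPM in WT MII and at 31.9, 27.3 and 12.5 CPM in Nat10-ZcKO MII. Only Nat10-ZcKO GV replicate 2 lay within the MII range. It fell by 2.77 ± 0.79 on the log2 scale (SE, adjusted p = 0.00481, edgeR) with 11 libraries, and with 8 the log2 change was -3.39 ± 0.44 (adjusted p = 6.27e-07).

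Of the activators, Psme4, whose product caps the core in place of the 19S particle, was at 103, 64.4 and 146 CPM in WT GV, at 70.8, 193 and 54.1 CPM in Nat10-ZcKO GV, at 222 and 0 CPM in WT MII and at 239, 136 and 100.2 CPM in Nat10-ZcKO MII. The stages overlapped, also over the 8 libraries. It passed with 8 libraries (log2 change 1.19 ± 0.40, adjusted p = 0.0133, edgeR) and not with 11 (0.56 ± 0.68, adjusted p = 0.526). Psme3, of the nuclear activator, had 4 to 12 counts in each library except WT MII replicate 2, which had 0, and passed in neither fit.

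Of the base chaperones, Psmd5 was at 131 to 229 CPM in the 4 GV libraries kept and at 47.9 to 81.8 CPM in the 4 deeper MII libraries, with no overlap. Its log2 change was -1.30 ± 0.71 with 11 libraries (SE, adjusted p = 0.136, edgeR), and it fell by 1.56 ± 0.40 with 8 (adjusted p = 0.00174). Psmd9 passed in neither, and Psmd10 had 1 count over all libraries. The Psmg chaperones of the core did not pass the filter of the stage fits. Psmg1 had 2, 10 and 3 counts in WT GV, 3, 3 and 10 in Nat10-ZcKO GV, and for MII 5 and 0 in WT against 9, 18 and 9 in Nat10-ZcKO. In CPM its 4 deeper MII libraries, at 37.1 to 123, lay above the 4 GV libraries kept, at 13.7 to 36.1. It was tested in the interaction of stage and genotype, at 0.92 ± 1.59 (SE, adjusted p = 0.868, edgeR). Psmg4 had 8, 6 and 5 counts in WT GV, 0, 2 and 27 in Nat10-ZcKO GV and 0 in all 5 MII libraries, where a count of 0 in the 4 deeper libraries allows up to 16.0 to 22.2 CPM. Its GV libraries ranged from 0 to 97.4 CPM, so the groups met at 0. Psmc3ip, the recombination gene, had 4, 12 and 4 counts in WT GV, 0, 0 and 8 in Nat10-ZcKO GV and 0 to 5 in the MII libraries.

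The inducible and tissue-specific core subunits were near the limit of detection. Psmb8, Psmb9 and Psmb10 replace constitutive beta subunits in the immunoproteasome of immune cells, Psmb11 is the thymic beta subunit, and Psma8 is an alpha subunit of germ cells known from the testis. Psma8 and Psmb11 had 0 counts in all 11 libraries. Psmb8 had 3 and 6 counts in Nat10-ZcKO GV replicates 1 and 2 and 0 in the other 4 GV libraries, and 0, 0, 3, 2 and 0 in the MII libraries. Psmb9 had 3 and 4 counts in the same replicates, 1, 0 and 1 in WT GV, 0 in Nat10-ZcKO GV replicate 3 and, in MII, 1 in Nat10-ZcKO replicate 2 and 0 in the others. Psmb10 had 4, 2 and 0 counts in WT GV, 2, 0 and 0 in Nat10-ZcKO GV, and in MII 1 in Nat10-ZcKO replicate 1 and 0 in the others. Together the 5 genes were at 189 and 193 CPM in Nat10-ZcKO GV replicates 1 and 2 and at 0 to 34.4 CPM elsewhere. In these 2 libraries the summed leukocyte markers, a list of 10 genes, were at 0.0567% and 0.0251% of the counts, with 7 and 5 genes detected, against 0.00289 to 0.0206% in the other GV libraries. WT GV replicate 1, at the upper end of these, also had 7 of the 10 detected. In CPM, 3 of the 10 were above the other 4 GV libraries in both and 4 more in replicate 1 only, while 2, H2-Aa and Tyrobp, had 0 counts in both and up to 5 and 2 in the others. The macrophage gene C1qa had 7 and 3 counts against 0 to 2, and the pan-leukocyte gene Ptprc 1 and 0 against 0. Psme1, of an activator that interferon induces, had 10 counts in Nat10-ZcKO GV replicate 1, 0 in replicate 2 and 0 to 8 in the other libraries. Psme2, another activator gene, had 0 counts in both replicates, 5 in WT GV replicate 2, 1 in Nat10-ZcKO GV replicate 3 and 0 in the others. The part of such cells in the counts of these genes was not tested.

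Between Nat10-ZcKO and WT no proteasome gene was called with all libraries of a stage. In GV, 22 of the 50 genes were tested and 0 were called in either direction (edgeR, adjusted p under 0.05), among 1765 genes tested of which 0.0% were called higher and 0.0% lower. An unadjusted p under 0.05 was found for 0 of the 22 and 85 of all genes, and DESeq2 called 0 of the 22 and 3 of all genes. The log2 changes ran from -1.29 to 1.14 with SE of 0.49 to 0.83. The lowest p was that of Psmd12, a lid subunit, at 89.4, 57.3 and 52.0 CPM in WT and 212, 96.7 and 126 CPM in Nat10-ZcKO. Its groups did not overlap, but the log2 change of 1.14 ± 0.54 did not pass (adjusted p = 0.9). Without Nat10-ZcKO GV replicates 1 and 2, 0 of 32 genes were called, against 0.98% of all genes higher and 1.03% lower, but 1 Nat10-ZcKO library then remains and is assumed to vary like the 3 WT libraries, so these 0 calls say little. Without Nat10-ZcKO GV replicate 3, which leaves the 2 libraries with few oocyte markers, 4 of 22 were called lower, namely Psmb2, Psmb6, Psmd2 and Psmf1, at log2 changes of -2.97, -2.14, -2.65 and -3.23, while 10.1% of all genes were called lower.

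In MII, 15 genes were tested and 0 were called (edgeR), while 0.191% of all 2097 genes tested were called lower and 0.0% higher. One of the 15 had an unadjusted p under 0.05, and DESeq2 called 0. This was Psmc6, which had 4 and 16 counts in the WT against 6, 2 and 13 counts in the Nat10-ZcKO libraries, at a log2 change of -3.59 ± 1.05 (SE, adjusted p = 0.209). Without WT MII replicate 2 its log2 change was 0.49, in the opposite direction, and 0 of 22 proteasome genes were called, against 0.205% of all genes lower. That fit holds 1 WT library, which is assumed to vary like the 3 Nat10-ZcKO libraries. Leaving out WT MII replicate 1 instead left replicate 2 as the only WT library, and 7 genes were then called higher and 1 lower, against 47.3% and 4.31% of all genes. Over the 15 genes the log2 changes ran from -3.59 to 0.91 with SE of 0.87 to 1.44.

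Nor did the stage difference differ between genotypes in a called way. In the interaction of stage and genotype, 31 genes were tested and 0 were called (edgeR), 1 had an unadjusted p under 0.05, and DESeq2 called 0, while 0.88% of 3863 genes were called lower and 0.0259% higher. The lowest p was that of Psmd13, a lid subunit, at an interaction of -3.73 ± 1.67 on the log2 scale (SE, adjusted p = 0.756). Its interaction was 1.60, in the opposite direction, without WT MII replicate 1, where 4 of 34 genes were called higher, against 15.8% of all genes. The SE were as large as 3.78, so that large differences could be missed.

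Of 39 other genes of the ubiquitin-proteasome path, 20 were tested between stages with 11 libraries, of which 3 fell and 0 rose, against the 20.9% and 12.6% of all genes in that fit. These were the polyubiquitin gene Ubb (log2 change -2.76 ± 0.77, adjusted p = 0.0044, edgeR), the F-box gene Btrc (-2.11 ± 0.77, adjusted p = 0.0246) and the proteasome maturation gene Pomp (-1.89 ± 0.77, adjusted p = 0.0442). With 8 libraries 21 were tested, of which 7 fell and 5 rose, against 33.9% and 30.4% of all genes. Beside these 3, the ubiquitin ligase genes Skp1a and Ubr4 fell by 3.21 and 1.92 and Ecpas and Uba6 by 1.14 and 1.27, whereas the ligase scaffold gene Cul1 rose by 2.68, Zfand5 by 3.89, Ubqln1 by 1.80, Ubqln2 by 2.24 and Ddi2 by 1.27, all on the log2 scale. The median log2 change was -0.97 over the 20 genes, beside -0.48 over all genes tested, and -0.81 over the 21, beside -0.14.

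Exact copies of coding sequence elsewhere in the genome can limit what counts show. For each gene, the share of all 28-base words of its coding sequence that occur again on the chromosomes of GRCm38 was computed. It was over 50% for 9 of the 50 genes and 0% for 25. Psma3 had the highest share, 92.4%, and 0 counts in all 11 libraries. Psma8, Psmb11, Psme2b and Psmg3 had 0 counts too, but of these Psme2b had 56.4% copied and the others 0%. In Psmg3, 59.0% of the coding sequence overlaps that of another gene. A word of Psma3 with 2 copies elsewhere and the first word of Psmd6, with 0 copies, are shown as examples of a coding sequence that occurs elsewhere and of one that does not. That of Psma3 lies at chr12:70978753-70978780 on the plus strand, in its coding sequence at bases 42 to 69, with a copy at chr14:52369620-52369647 on the minus strand, and that of Psmd6 at chr14:14120856-14120883 on the minus strand, from its start codon, all on GRCm38.
Psma3: gttctctcctgatggaagagttttccaa
Psmd6: atgccgctagaaaacctagaagaagagg
Among the 34 genes of the constitutive core and the cap, its 3 base chaperones included, the median WT GV level was 39.7 TPM for the 7 with over 50% copied, 117 TPM for the 14 with a lower share above 0 and 188 TPM for the 13 with 0%. How the deposited counting treated fragments with several places in the genome is not given in the sources used here, so the levels of copied genes are uncertain. The part of copies in these levels was not tested. Of the genes called with 11 libraries, Psmc1 had 53.4% and Psmd2 49.5% copied, and Psma2, which was called with 8 libraries, had 40.4%. Psmd3, Psmd6 and Psmf1 had 0%. Psmb5, which was too low to be tested, had 80.4%. For the 9 genes over 50%, the sum went from 251 ± 75.3 CPM in GV to 89.3 ± 16.0 CPM in MII over the 8 libraries (SD, n = 4 each), and for the other 41 from 5126 ± 125 to 3027 ± 482 CPM.

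**Figure D4:**
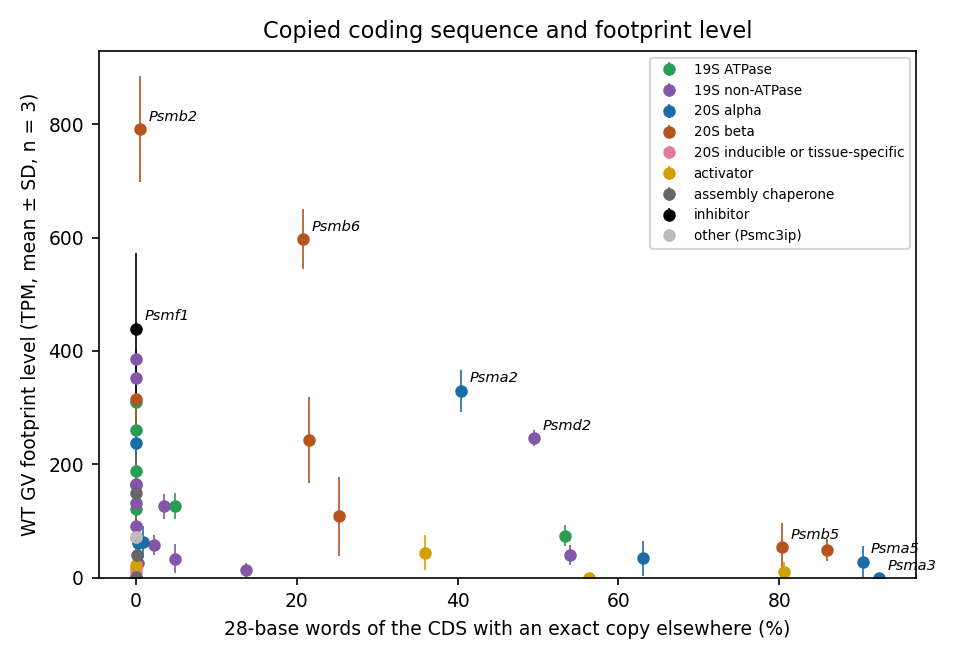
Share of 28-base words of each coding sequence with an exact copy elsewhere (horizontal) against the WT GV level in TPM, mean ± SD of 3 libraries (vertical), for the 50 genes. The 9 genes over 50% all lie at or below 74.3 TPM, while Psmb2, at 791 TPM, has 0.521%.

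The 3' ends were read for the signals that act in maturing oocytes, where mRNAs with a cytoplasmic polyadenylation element near the polyadenylation signal are known to gain poly(A) and translation. On GENCODE M21 transcripts, the last 100 bases of the 3'UTR were searched on the sense strand for the element (TTTTAT or TTTTAAT) and the signal (AATAAA or ATTAAA). Of the 39 proteasome genes with such a window, 5 held the element, against 17.9% of 19280 genes with a window, and these were Psma1, Psma5, Psmb1, Psmg1 and Psmg3. Of these, only Psmb1 passed the filter on low counts in the stage fits of all libraries and of 8 libraries, and it was not called. The others were not tested there and could not be called. That 0 of the 13 called lower with a window and 0 of the 3 called higher had the element therefore says little. Over the 8 libraries the ratio of MII to GV in mean CPM was 2.05 for Psma1 and 2.26 for Psmg1. It was 0.684 for Psmb1 and 0.121 for Psma5, and Psmg3 had 0 counts. These ratios rest on few counts, over the 11 libraries 69 for Psma1, 72 for Psmg1, 91 for Psmb1 and 11 for Psma5. Over the 8 libraries the stages overlapped for Psma1, Psmb1 and Psma5 and not for Psmg1. The letters around the signal are shown for 2 genes called higher and 1 called lower with 8 libraries, with the signal in capitals. They lie at chr13:14627602-14627631 (Psma2) and chr11:98695949-98695978 (Psmd3) on the plus strand and at chr14:14112188-14112217 (Psmd6) on the minus strand of GRCm38, all in the 3'UTR.
Psma2: ctgatgtccaatATTAAAaaaaacaaaaca
Psmd3: tgatttttaaacAATAAAaagttctccaga
Psmd6: tcaacagcatcaAATAAAtatgtcatttgt
Psma2 carries the less common form of the signal, and the signal begins 19 to 32 bases before the annotated end in the 3 genes. A match is a description of the letters only, and 78.7% of all genes with a window hold a signal.

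In acRIP-seq, the proteasome genes together took a slightly smaller share of the ac4C library than of the IgG library. The ac4C library held 970997 counts and the IgG library 116232, so that the ratio was taken on CPM, and with 1 library each there is no replicate check. The 50 genes together had 5679 counts with the ac4C antibody and 741 with IgG, a ratio of 0.917, with an exact (Clopper-Pearson) 95% interval of 0.850 to 0.992 that covers counting error only. With TMM factors, another way to scale libraries, the summed ratio was 1.02, so its side of 1 depends on the scaling. Of the 43 genes with at least 10 counts over both libraries, 5 had a ratio above 2 with counts in both libraries, and 8 had 0 counts in IgG, which leaves the ratio without an upper end. With these 8 counted as above 2 there were 13, against 43.9% of all 8752 such genes. With a count of 0 in IgG taken as 3, the limit it allows, 3 of the 8 stayed above 2, namely Psma1, Psma4 and Psmd14, so that 8 of the 43 were above 2, against 21.2% of all such genes. A ratio below 0.5 was found for 9 of the 43 and for 17.8% of all such genes. The median ratio was 1.02 over the 43 and 1.56 over all such genes, or 0.804 and 0.942 with 0 counts taken as 3. The lower bound of the interval was above 1 for 8 genes, against 21.7% of all genes, and the upper bound below 1 for 13, against 17.8%. A lower bound above 2 was found for 4 genes, against 5.02%.

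By class, the beta subunits together had a ratio of 0.447 (0.379 to 0.529), with 683 counts against 183, and the alpha subunits 1.66 (1.26 to 2.24), with 735 against 53. The ATPases were at 0.827 (0.695 to 0.989), the Psmd genes at 1.05 (0.918 to 1.21) and the Psmg chaperones at 0.221 (0.152 to 0.325). The activators were at 2.15 (1.59 to 2.99), and without Psme3, which had 487 of their 792 ac4C counts, at 1.04 (0.734 to 1.53). The intervals of the alpha and beta subunits did not overlap.

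Among the 32 genes with at least 50 counts, Psma4 (108 counts against 0), Psmd14 (99 against 0), which encodes the deubiquitinase of the lid, and Psma1 (74 against 0) had no count in IgG. Against a limit of 3 counts in IgG their ratios were at least 4.31, 3.95 and 2.95-fold. Psme3 had 487 counts against 9 and the highest ratio with counts in both, 6.48 (3.38 to 14.3), and without it the ratio of all members was 0.849. At the other end Psmg1 had 45 counts against 17, a ratio of 0.317 (0.178 to 0.591), the trypsin-like beta subunit gene Psmb7 133 against 46, a ratio of 0.346 (0.246 to 0.495), and Psmc5 200 against 59, a ratio of 0.406 (0.302 to 0.552). The genes called between stages lay on both sides of 1. Of those called higher with 8 libraries, Psma2 was at 1.50 (0.873 to 2.81) and Psmd3 at 1.17 (0.701 to 2.11). Of those called lower, Psmb2 was at 0.447 (0.249 to 0.851), Psmd6 at 0.544 (0.347 to 0.885) and Psmf1 at 1.07 (0.692 to 1.72). Psma7 and Psmc4, also called lower with 8 libraries, were at 2.89 and 2.22, with lower bounds of 1.49 and 1.14. Since fragments on no feature were 46.7% of the IgG and 17.1% of the ac4C library, a ratio is relative to the genes that were counted.

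**Figure D5:**
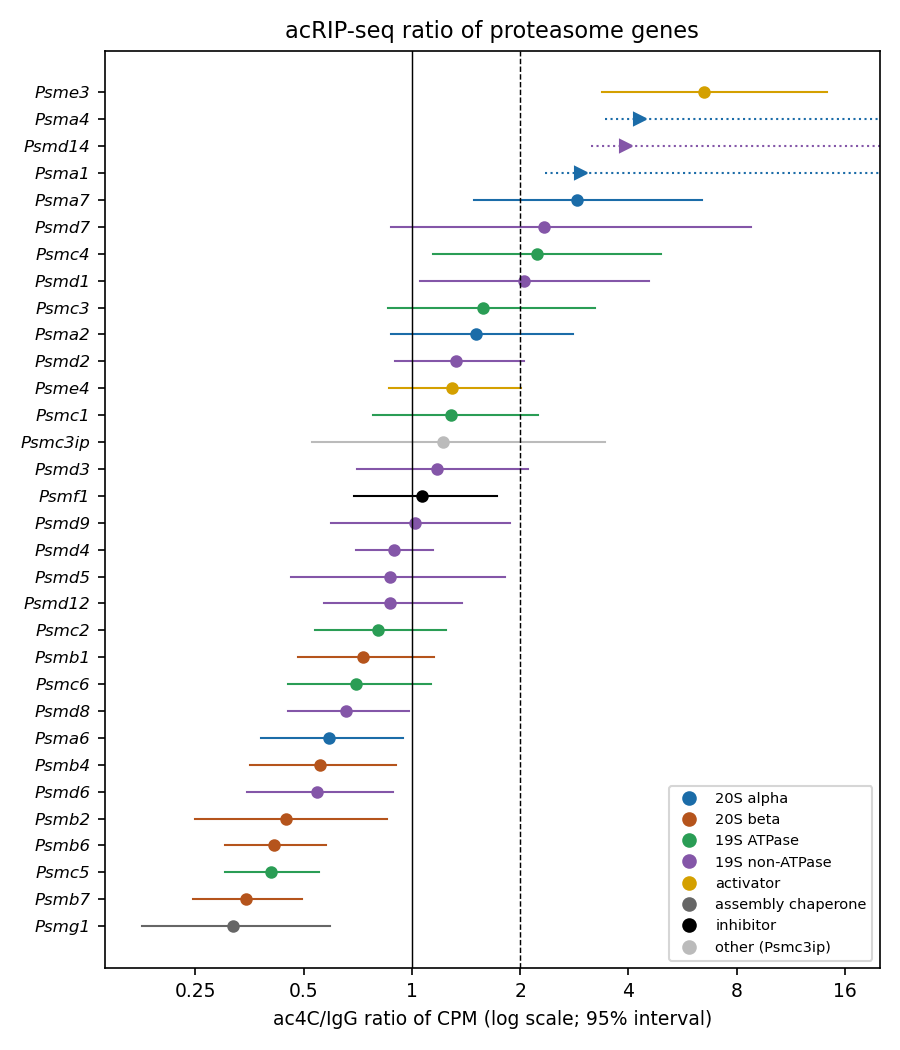
Ratio of CPM with the ac4C antibody to CPM with IgG (log scale) for the 32 proteasome genes with at least 50 counts, with the exact 95% interval. Triangles are genes with 0 counts in IgG, drawn at their ratio against 3 counts, and the dashed line marks a ratio of 2. The tested beta subunits all lie below 1, and Psme3, Psma4, Psmd14 and Psma1 have their lower bound above 2.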

How the data were processed

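Ribo-seq and acRIP-seq libraries were grouped by their labels. For both assays the authors deposited raw counts per gene, on the CDS for Ribo-seq and on protein-coding genes for acRIP-seq, 1 library each and not pooled. The submitters' processing notes name cutadapt, STAR, HTSeq and mm10, without versions. The handling of rRNA, of PCR duplicates and of fragments with several places in the genome is not given in the sources used here, and the labels do not say that replicates are separate cohorts of mice, so p-values measure the spread between these libraries. The proteasome genes, the gene lists and the tests were chosen with earlier results of these data known.

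Of 22442 identifiers, 22399 matched GENCODE M21 (GRCm38) without the version. CPM, TPM over the union of CDS segments and exact 95% intervals were computed in Python 3.11.15 (scipy 1.17.1). Fits used edgeR 4.0.16 (filterByExpr, TMM, glmQLFit and glmQLFTest, prior count 0.125, Benjamini-Hochberg adjustment, threshold 0.05). The SE was taken as the ratio of a log2 change to the root of its F value. The GV fit held the 6 GV libraries, the MII fit the 5 MII libraries, and the stage and interaction fits all 11. Alternatives were DESeq2 1.42.0, other scalings and filters, libraries left out, one fit for all libraries and a replicate block. The fits were tested on simulated data. At the estimated dispersion the interaction fit recovered almost none of the genes changed there and the MII fit a minority, so 0 calls in these fits carry little weight. In acRIP-seq, summary entries that name no gene were left out, with 0.392% (IgG) and 0.750% (ac4C) of fragments ambiguous beside those on no feature.

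Genes were named by rule: the 2 with the most RPF counts per class, those called in a fit (up to 10 per fit), the lowest p in each fit, the 3 highest and 3 lowest acRIP-seq ratios at 50 counts or more, all inducible or tissue-specific core genes, the called genes of the path and those with no RPF count. Psmb5, Psmc4, Psmc6 in the stage comparison, Psmc3, Psmd4, Psmd5, Psmd7, Psmd9, Psmd10, the named markers, the genes with a polyadenylation element and those called without 1 library were named after their values were seen. Replicates of a group differed beyond counting noise, and no 2 libraries appeared to be the same.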

Additional observations from a re-analysis of the deposited data

Results flagged for a closer look

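Psma2 was picked out because every Nat10-ZcKO library lay below every WT library in GV and above every WT library in MII. In GV it was at 186, 197 and 156 CPM in WT and 94.4, 116 and 155 CPM in Nat10-ZcKO, and in MII at 319 and 0 CPM in WT and 532, 375 and 457 CPM in Nat10-ZcKO, with means 295 CPM higher in Nat10-ZcKO MII than in WT MII. The WT mean in MII includes the 0 counts of WT MII replicate 2, which allow up to 623 CPM, and without that library the difference is 136 CPM, so the order of the groups in MII rests on that 0 and on 1 other WT library. The interaction of stage and genotype was 2.07 ± 1.73 on the log2 scale (SE, adjusted p = 0.806, edgeR) with 11 libraries and 0.38 ± 0.64 (adjusted p = 0.934) without the 3 libraries that stood apart, so the difference did not pass the test. In GV the highest Nat10-ZcKO and the lowest WT library, both of them libraries with many oocyte markers, were less than 1 CPM apart.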

How the results depend on the processing

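The count of proteasome genes lower in MII was 9 of 25 with 11 libraries, against 20.9% of all genes tested, and 18 of 25 with DESeq2, against 43.1%. Without a filter on low counts it was 2 of 45, against 178 of all 13685 genes. With at least 10 counts in the fit it was 5 of 41, against 451 of 8678. Without the 3 libraries that stood apart it was 16 of 26, against 33.9%. In the WT and the Nat10-ZcKO libraries alone it was 3 and 2 of 21, against 11.5% and 6.02%. With single libraries left out it was 2 to 12. The 2 were of 30, against 6.11%, and the 12 of 25, against 760 of 2731. The count of those higher was 0 with 11 libraries, against 12.6% of all genes, and 3 without the 3 libraries, against 30.4%. It was 1 in the WT libraries alone (Psmc6), against 9.98%. With single libraries left out it was 0 to 2, where the 2 stood against 20.6%. With the replicate block 2 fell and 0 rose of 31 tested, against 185 and 111 of all 3863 genes. In that setting 0 were called between genotypes in GV or MII or in the interaction. The deviations of same-numbered libraries from their group means correlated at -0.0931 to 0.244. The 2 WT MII libraries deviate from their mean as mirror images. These correlations therefore cannot show whether same-numbered libraries were paired. Between genotypes 0 were called with all alternatives except these: in GV 0 to 4 and in MII 0 to 8 with single libraries left out, in MII 1 with library size only, and in the interaction 0 to 4 with single libraries left out. The 1 called in MII with library size only was lower, as were 24 of all 2097 genes there. The log2 change of Psmc6 in MII ranged from -4.10 to 0.49 with single libraries left out, and the interaction of Psmd13 from -4.56 to 1.60. The positive values were those without WT MII replicate 2 and without WT MII replicate 1. On the log2 scale the summed share of MII against GV was -0.41 in WT and -0.72 in Nat10-ZcKO, and that of Nat10-ZcKO against WT -0.06 in GV and -0.38 in MII. TMM-scaled CPM, whose factor was 11.8 in WT MII replicate 2 and 0.580 to 1.61 in the others, moved these to -1.78, -0.28, -0.49 and 1.01. The number of genes with an ac4C/IgG ratio above 2 was 13, 8 at 50 counts or more, 8 with 0 counts in IgG taken as 3 (chosen after seeing the data), 39 without scaling to library size and 4 by the lower bound, and the summed ratio was 0.917, or 1.02 with TMM factors. Where no cause is named it was not tested. The small library totals limit what could be tested, since at most 31 of the 50 genes passed the filter in the 4 fits.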
